A study of Sus scrofa with 57 samples.

Results

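Captured regions in gene deserts are the stretches of methylated DNA, far from any gene, whose read counts were called different between obese and lean pigs. They are 1746 of the 7401 regions that the authors deposited for methylated DNA capture (mDNAcap) in mature adipocytes. Members lie on chromosomes 1 to 18, more than 50000 bases from the nearest gene locus, and have a mean of the obese and the lean value under 40. They were selected on the contrast that they are described by. The deposited table holds only regions that the authors' G-test called different between these same libraries at a p cutoff of 0.0001. All obese and lean capture values below are therefore a description, and where members past a threshold are counted for this contrast, the count supports nothing.

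The animals were F2 pigs with minipig and production breed ancestors, and mature adipocytes were isolated from the retroperitoneal fat of lean and obese individuals. For mDNAcap, 13 samples are labelled obese (8 males and 5 females) and 10 lean (8 males and 2 females). The deposited comparison holds 11 libraries per group, with pig-411, labelled obese, in the lean group and no library of the obese pig-584. The paper, too, counts 11 lean pigs, where 10 are labelled lean. Expression was measured by RNAseq in 5 lean and 5 obese males, and reduced representation bisulfite sequencing (RRBS) was done on the pigs of the capture.

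In mammals most CpG sites outside promoters and CpG islands carry a methyl group, and long intergenic stretches are methylated by default. The MethylMiner capture used here, called MeDIP-seq in the sample labels, pulls down DNA fragments through a protein domain that binds methylated CpGs, so that its read count follows both the methylation and the density of CpGs. Gene deserts are usually poor in CpGs, and some contain distant enhancers of developmental genes. In the present data a desert is defined by the gene loci of the expression tables on Sscrofa10.2, and a gene that those tables lack could not be seen. No base sequence of these regions is shown, because no genome of this build was at hand.

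Of the 1746 desert regions, 1500 had a lower and 246 a higher mean in obese than in lean pigs. The lower share was 85.9%, beside 70.7% of all 7401 regions. With the same chromosomes and limit on the mean, 77.6% of 2063 regions within 50000 bases of a locus and 61.6% of 2845 regions on a locus were lower. The difference of 24.3 points between desert and locus regions was 12.8 points among regions changed at least 1.5-fold. The values are normalized counts, the reads of a library in the region divided by its normalization constant. Lower members had a median of 10 in obese and 16.5 in lean pigs, and higher members 27.9 and 19.2. The ratio of the obese to the lean mean ranged from 0.395 to 0.739 (median 0.602) in lower members and from 1.28 to 2.1 (median 1.45) in higher members, with nothing in between. That empty interval follows from the calling of the regions. A typical member was short and shallow, with a median length of 1100 bases (1000 to 3100) and a mean normalized count of 14. Summed over the 11 libraries of a group, a member held a median of 157 reads in obese and 237 reads in lean pigs.

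Direction depended strongly on how many reads a desert region held. Of the 174 members with a mean normalized count under 10, 97.1% were lower in obese pigs, and of the 844 members between 10 and 15, 96.3% were. The share was 89.3% between 15 and 20 and 59.0% between 20 and 30. Among the 72 members between 30 and 40 it was 27.8%, so that most of the members with many reads were higher in obese pigs. Regions on gene loci showed the same fall from 94.6% to 9.18%, and at 20 to 30 their share was 28.5%. In each of these 5 intervals a larger share of desert regions than of locus regions was lower.

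Direction also varied with the distance to the nearest gene. The lower share was 61.6% on a locus, 73.4% within 5000 bases and 79.1% between 20000 and 50000 bases. Inside the deserts it was 84.1% up to 100000 bases, 86.5% up to 200000, 85.7% up to 400000 and 91.1% beyond. The median mean count decreased along the same steps from 16.1 on a locus to 13.4 beyond 400000 bases, and the part of the read count in the distance trend was not tested.

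**Figure D1:**
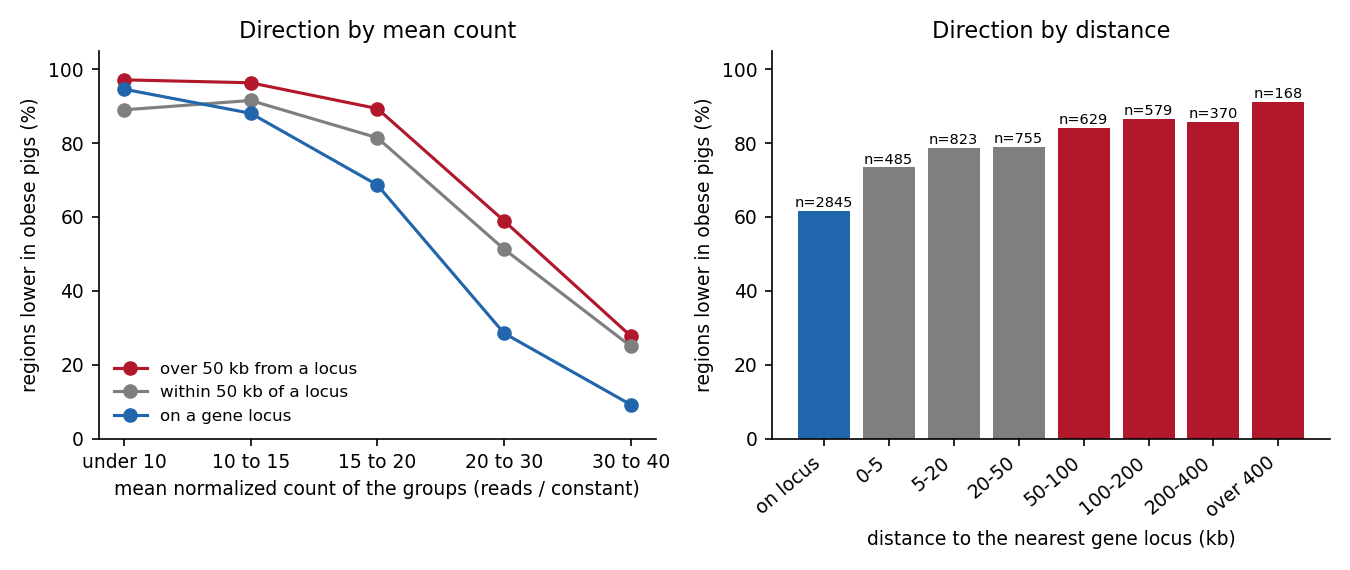
Percent of regions with a lower normalized count in obese pigs, by the mean normalized count of the groups (left, lines for desert, near and locus regions) and by distance to the nearest gene locus in kb (right, bars with the number of regions). Desert regions go from 97.1% under a mean of 10 to 27.8% at 30 to 40, and the bars rise from 61.6% on a locus to 91.1% beyond 400000 bases.

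Desert sequence, as the space between the first and the last locus of a chromosome that lies more than 50000 bases from every locus, made up 1049 Mb or 42.9% of the autosomal span. It held 1731 members, or 1.65 per Mb, compared with 2.60 per Mb of sequence within 50000 bases of a locus and 4.68 per Mb of locus sequence. The remaining 15 members lay outside the first or the last locus. Per Mb of desert, chromosomes 10 (4.86), 12 (4.80) and 18 (4.66) held the most members, and chromosome 13 (0.414) the fewest. On chromosome 9, 95 of 96 members were lower in obese pigs, whereas on chromosomes 15 and 6 the lower share was 73.2% and 74.2%.

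Members were crowded towards the chromosome ends, a pattern chosen after the positions were seen. The final 10% of each span held 9.06% of the desert sequence but 34.5% of the members, which amounts to 6.28 per Mb against 1.19 elsewhere. The first 10% held another 20.2%, at 3.48 per Mb. Between the ends the density fell to 0.537 per Mb. Regions on gene loci were dense at the ends too, at 10.23 and 12.58 per Mb. Members at the ends were less often lower in obese pigs, with 73.1% in the first and 83.1% in the final 10% of the span, against 88.4% to 98.4% in the stretches between. Regions of the other classes were also less often lower there, with 44.0% and 49.0% on a locus and 63.9% and 67.0% within 50000 bases of one.

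**Figure D2:**
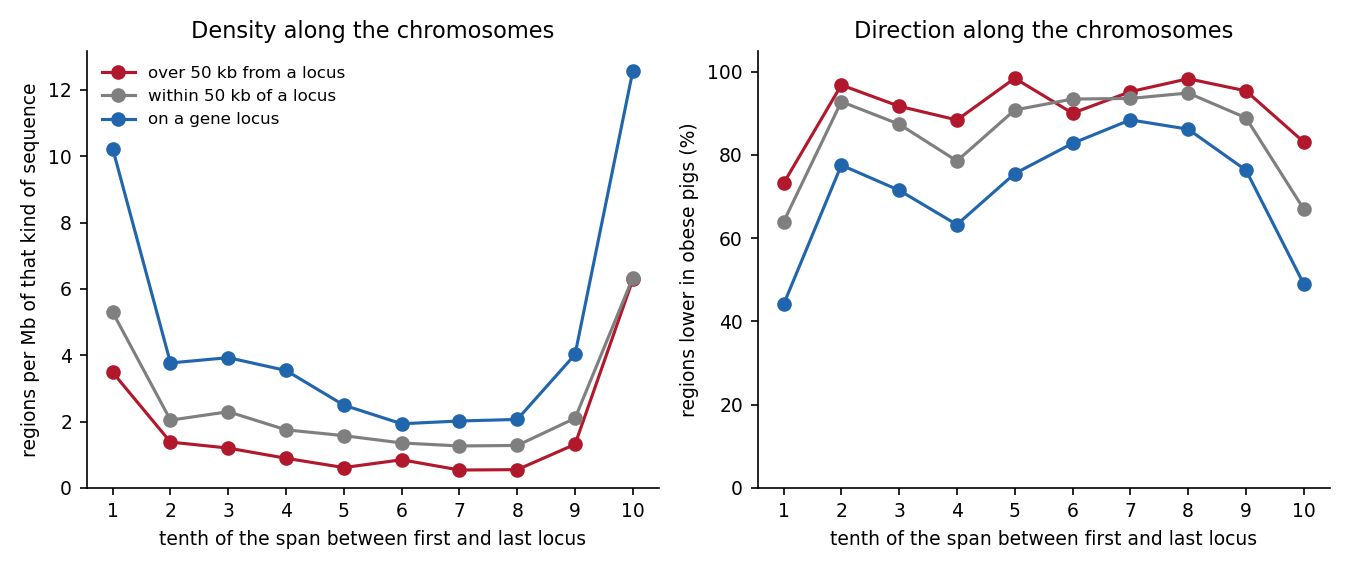
Regions per Mb (left) and percent lower in obese pigs (right) in 10 equal parts of the span between the first and the last gene locus, added over chromosomes 1 to 18, for desert, near and locus sequence. Desert regions reach 3.48 and 6.28 per Mb at the ends, where 73.1% and 83.1% were lower in obese pigs.

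Between neighbouring loci there were 4125 gaps wide enough to hold a member, and 766 of them did. Most of these gaps held a single member, while 76 gaps with at least 5 members together held 631. In 41 of these 76 gaps all members were lower in obese pigs, and in 9 gaps most were higher. Of 164 pairs of adjacent members within 10000 bases of each other, 114 were both lower, 20 both higher and 30 opposite.

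The gap with the most members, 31, spans 2936 kb of chromosome 11 between SLC10A2, the bile acid transporter of the ileum, and EFNB2, an ephrin ligand of vascular and neuronal cells. In this gap 28 members were lower in obese pigs, with medians of 10.6 in obese and 17.0 in lean pigs. The next gap, on chromosome 10 between a copy of the spliceosomal RNA U6 and ADARB2, a brain relative of the RNA-editing deaminases, held 24 members, of which 17 were lower. On chromosome 16, between CDK7, a kinase of the transcription machinery, and IRX4, a homeobox factor of the heart ventricle, only 10 of 22 members were lower, and the median ratio was 1.35. The medians were 16.5 in obese and 22.3 in lean pigs in the gap on chromosome 10, and 22.7 and 18.3 in that on chromosome 16. These gaps thus differed in read count as well as in direction. By the nearest locus, EFNB2 and ENSSSCG00000015634 had the most members, 21 each, followed by CDK7 with 17, a U6 copy on chromosome 10 with 16 and ENSSSCG00000025361 with 11.

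The lowest ratio among the members was 0.395, at chr2:133980101-133981400, 469848 bases from a U6 copy. Its normalized count had a median of 4.95 in obese pigs (0 to 13.8) and 12.4 in lean pigs (8.60 to 16.9), and 9 of 11 obese libraries lay under the lowest lean library. The region at chr1:17495601-17496800 followed with a ratio of 0.399, 53619 bases from MTHFD1L, a mitochondrial enzyme of folate metabolism. Here the medians were 6.14 in obese pigs (1.12 to 11.5) and 14.9 in lean pigs (7.34 to 23.8). At chr1:216235401-216236400, 54586 bases from a 5S ribosomal RNA copy, the ratio was 0.404, with medians of 4.09 (0 to 12) and 9.30 (7.84 to 20.2). In each of these regions the groups overlapped, in the last of them through 1 obese library.

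The highest ratio was 2.1, at chr6:8555701-8556700, 665743 bases from a 5S ribosomal RNA copy. Obese libraries had a median of 11.4 (6.48 to 26.3) and lean libraries 4.57 (3.10 to 10.5), and 7 of 11 obese libraries lay over the highest lean library. A ratio of 1.86 was found at chr1:164219001-164220000, in a gap of 830 kb beside the zinc finger gene ZNF516, with medians of 15.1 (8.72 to 23.5) in obese and 7.90 (2.2 to 13.2) in lean pigs. At chr6:3871001-3872300, between KIAA0182 and KIAA0513, the ratio was 1.81, with medians of 21.4 (14.4 to 29.1) and 12.2 (4.04 to 19.1). The groups overlapped in these regions as well. All 7 members of the 502 kb gap around this last region were higher in obese pigs, which was singled out after the values were seen.

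**Figure D3:**
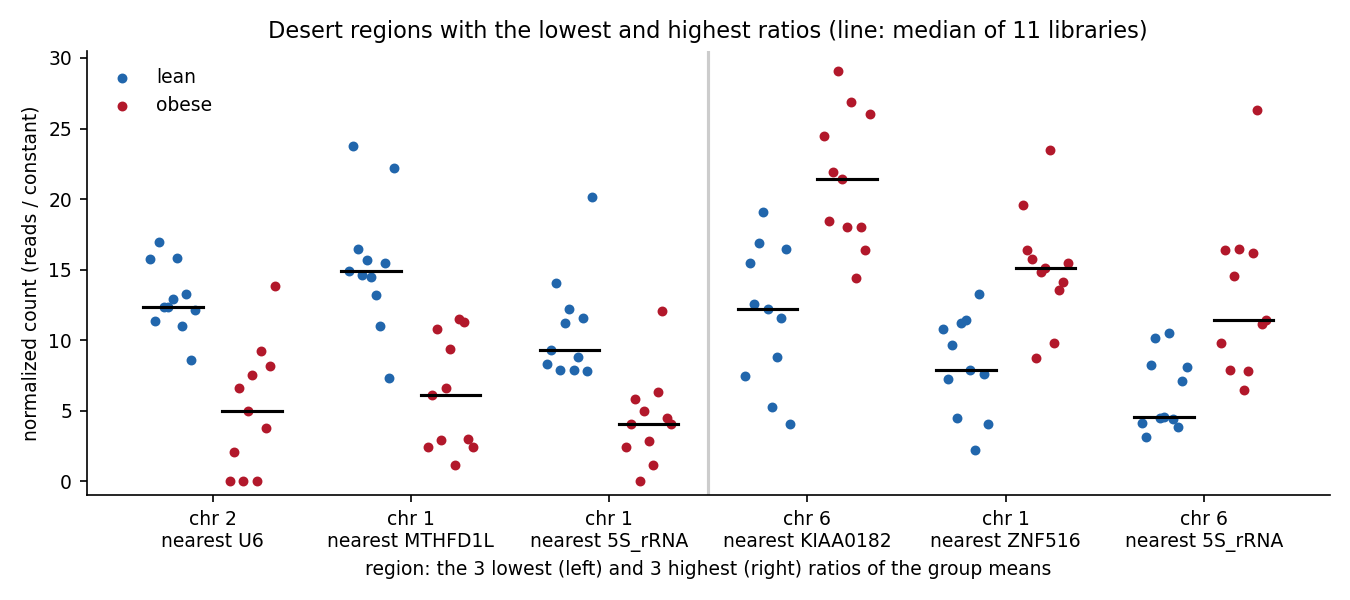
Normalized count of each of the 11 lean and 11 obese libraries (points, with the median as a line) in the 3 desert regions with the lowest and the 3 with the highest ratio of the group means. The medians are 12.4 lean and 4.95 obese in the region with the lowest ratio and 4.57 lean and 11.4 obese in the one with the highest, and the groups overlap in all 6.

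The member farthest from any gene lies 1710060 bases away, at chr8:60849501-60850700, in the widest gap with a member (4960 kb), which begins at IGFBP7, a secreted binding protein of growth factors. It had a median of 6.69 in obese pigs (2.91 to 12.8) and 13.4 in lean pigs (9.36 to 17.9). The next farthest, chr11:80175801-80177000 and chr11:80010501-80011500, both lie in the gap between SLC10A2 and EFNB2 and had ratios of 0.564 and 0.597. The longest member, 3100 bases at chr17:62971701-62974800, had medians of 27.5 in obese (9.78 to 34.6) and 42.6 in lean pigs (35.9 to 57.9), without overlap of the groups. A second member without overlap, chr10:56412801-56413800, was named after its values were seen, and its medians were 6.60 (0 to 7.50) and 10.1 (7.84 to 15.0). These 2 were all the members without overlap between 11 and 11 libraries, and 0.149% of all regions were so. The other long members were chr16:83230401-83232800 (2400 bases) and chr3:19954101-19956400 (2300 bases), with ratios of 0.650 and 0.639.

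At the limit on the distance, regions on either side had similar ratios. The members nearest to a gene lay 50127 bases from PRDM2 and 50186 bases from LRFN2 and had ratios of 0.635 and 0.596. The closest regions left out, 49941 bases from GFRA1 and 49839 bases from ENSSSCG00000023942, had ratios of 0.589 and 0.613. At the limit on the count, the last members inside had means of 39.9 on chromosomes 9 and 6, with ratios of 0.646 and 0.736. The first desert regions outside had means of 40.2 and 40.3 and ratios of 1.49 and 1.47, the opposite direction. Those inside were not typical, since only 27.8% of the 72 members with a mean between 30 and 40 were lower. In all, 126 desert regions were left out for a mean of 40 or more.

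The depth of the capture varied widely between libraries. Within the 7401 regions, obese libraries held between 124676 and 1109070 reads (median 486323) and lean libraries between 152883 and 1557640 reads (median 429670). All values under the limit of 40 came out as whole multiples of 1 read, within 0.0051 of a normalized count. In the shallowest obese library 14.4% of the desert regions had no read, while in lean libraries at most 0.286% had none. The file names in the header of the capture data hold 2 tags, hiseq2a with 5 obese and 5 lean and hiseq2b with 6 and 6 libraries. These tags are called runs here, a reading that rests on the name alone. A further tag of these names, 7XVL, LMM7, C443 or RMPU, was not used to split the libraries. A value was linked to its run only through the order of the parallel lists in the file header, and no value was linked to a pig or a sex.

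Added over the 1746 desert regions, the normalized counts of obese libraries ranged from 19376 to 30066 (median 23403) and of lean libraries from 28017 to 36128 (median 31143). The groups overlapped through 1 obese library. Relative to the sum over locus regions, the desert sum was 0.377 to 0.570 in obese libraries (median 0.462) and 0.547 to 0.639 in lean libraries (median 0.587). In hiseq2a the desert sums had medians of 21378 in obese and 33778 in lean libraries, and in hiseq2b 23468 and 30240. Of the lower members, a typical obese library was under the lean median in 95.5%. The overlapping library was under it in 62.5%, and the other 10 in 87.6% to 99%.

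Reads outside the regions moved with these sums. Their mean count per bin of 1000 bases, divided by the same constant, was 1.12 to 2.72 in obese libraries (median 1.49) and 1.5 to 2.64 in lean libraries (median 1.88). The obese library that overlapped with the lean ones had the highest value of its group, 2.72. Per unit of the bin mean, the desert sums were 11047 to 17245 in obese (median 15399) and 13278 to 20130 in lean libraries (median 16370). The groups then overlapped over most of their range. Locus sums on this scale had medians of 34100 in obese and 28733 in lean libraries. Whether the bin mean reflects background capture, and what part it has in the lower desert signal of obese pigs, was not tested.

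In obese libraries, a higher bin mean went with a higher desert sum. Pearson's r was 0.915 and Spearman's rho 0.955 over the 11 obese libraries, and 0.758 and 0.718 over the 11 lean libraries. Both measures were divided by the same constant, which by itself can make them move together, so no p is given for these values. In the ratio of the desert sum to the locus sum, a measure chosen after seeing the data, the constant cancels. The locus sum varied little, however, from 48890 to 53440 in obese and from 51210 to 56580 in lean libraries. The ratio is thus close to the desert sum over a fixed value, still tied to the constant, and no p is given for it. Its r with the bin mean was 0.845 and its rho 0.918 in obese libraries. In lean libraries r was 0.740 and rho 0.7. Without the 2 libraries farthest from the median, r of the ratio was 0.803 in obese and 0.359 in lean libraries, so that the lean relation rests largely on those 2. The desert sum itself had r of 0.863 and 0.469 without them. In hiseq2b alone its r was 0.961 and rho 0.943 in 6 obese libraries and 0.745 and 0.314 in 6 lean libraries, while hiseq2a, with 5 libraries per group, was under the minimum of 6 kept for correlations. For the locus sums r was 0.225 in obese and 0.693 in lean libraries.

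**Figure D4:**
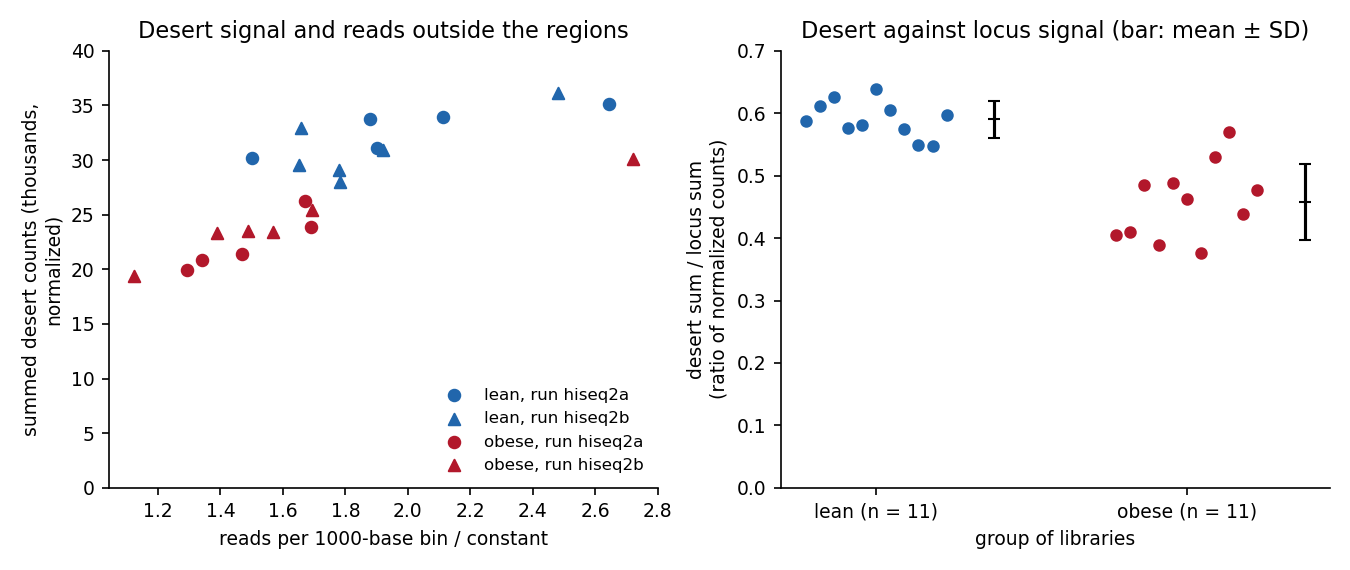
Sum of the normalized counts over the 1746 desert regions against the bin mean (left, each point 1 library, shape by run), and the ratio of the desert sum to the locus sum (right, points with mean and SD, n = 11 per group). The picture titles the bin mean as reads outside the regions, though the regions were not removed from it. Obese libraries span 0.377 to 0.570 and lean libraries 0.547 to 0.639 in that ratio.

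The number of desert regions past a threshold was different with each scaling of the libraries. With limma on the log2 of the deposited normalized count plus 1, 1729 members had an adjusted p under 0.05, 1492 lower and 237 higher, where 69% of all regions passed as lower and 27.1% as higher. Scaled by the median of ratios over all regions, 496 members (28.4%) passed in limma, 251 lower and 245 higher, beside 39.6% of all regions (807 lower and 2125 higher). Scaled by the bin mean, 597 members (34.2%) passed, 353 lower and 244 higher, beside 43.1% of all regions (1096 lower and 2093 higher). Nothing is read from any of these counts, since the same contrast and libraries chose the regions. Under both scalings 1500 members were lower, which the empty interval of the ratios fixes. The median log2 difference of obese from lean was -0.73 as deposited, -0.44 by the median of ratios and -0.46 by the bin mean.

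RRBS reads CpG-rich fragments after bisulfite conversion and gives the methylation level itself, here as the authors' mean of each group, without values per animal or read depth per region. The files name no columns, so obese and lean were told apart by the order of the groups in the file name, on which every direction below rests. The paper reports more RRBS regions gaining than losing methylation in obese pigs, as this order gives. The RRBS regions, too, were selected by the authors for a difference between obese and lean pigs, so that their directions and levels are a description. Of 563 such autosomal regions with values in at least 5 pigs per group, 98 (17.4%) lay more than 50000 bases from a locus. In obese pigs 38 of the 98 had a lower and 60 a higher methylation level, a lower share of 38.8% beside 34.1% of all 563. The median level was 39.8% in obese and 29.5% in lean pigs. The desert RRBS region with the largest difference, chr3:101441334-101441519, lies 67140 bases from SIX2, a homeobox factor of kidney progenitors, and had levels of 24.7% in obese and 65.3% in lean pigs over 10 CpGs. In the opposite direction the largest difference was at chr12:32304600-32304674, 57449 bases from MMD, with 55.7% and 25.03%.

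The lists of both assays, each chosen by the same contrast in largely the same pigs, met in only 3 desert members, which were higher in obese pigs by both. At chr11:86027301-86028800, beside ENSSSCG00000009552, the capture mean was 33.9 in obese and 22.9 in lean pigs, and RRBS gave 63.9% and 45.2% over 17 CpGs. At chr6:1348401-1349500, between APRT and a U6 copy, the capture means were 16.2 and 9.59, and RRBS gave 18.2% and 7.98% over 24 CpGs. The member at chr6:59449801-59451300 lies 106902 bases from PRDM16, a determinant of brown and beige fat. Its capture means were 39.2 and 28.6, with RRBS levels of 22.4% and 10.16% over 10 CpGs. None of the 1500 lower members overlapped one of these RRBS regions. With values in at least 3 pigs per group, 9 members overlapped, and 6 of them had the same direction in both assays, 2 as lower and 4 as higher in obese pigs. Within 1000 bases, 4 of 6 members had the same direction with at least 5 pigs, and 11 of 20 with at least 3 pigs. Over all autosomal capture regions, the overlaps with one direction were 14 of 22 with at least 5 and 60 of 84 with at least 3 pigs, and within 1000 bases 21 of 36 and 113 of 162.

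Expression was measured apart from the capture and was not used to choose the regions. The 1746 members had 926 different nearest genes, 166 of them without a symbol. These genes were little expressed, with a median FPKM of 0.181 and 36.3% at an FPKM of at least 1, compared with 0.300 and 40.2% of all genes with a locus. Of the 926, 339 passed the filter on low values (mean FPKM of at least 1) and were tested with limma over 10246 genes. None had an adjusted p under 0.05, where 1 of all genes tested (0.00976%), C10ORF46, did. The paper, which used cuffdiff, another test, reports far more differentially expressed transcripts between the groups. At an unadjusted p under 0.05 there were 62 nearest genes (18.3%), 28 lower and 34 higher in obese pigs, beside 20.4% of all genes. In bulk samples of this kind, fewer cells of a type and less RNA per cell cannot be told apart.

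The nearest gene with the lowest unadjusted p was LDOC1L, a gene derived from a retrotransposon, with FPKM of 1.03, 1.35, 1.42, 1.43 and 1.552 in lean and 2.25, 2.58, 2.65, 2.75 and 2.95 in obese pigs (limma adjusted p = 0.0514). Every obese pig was above every lean pig. SESN3, a stress-induced sestrin that restrains mTORC1, had 2.82, 2.91, 3.03, 4.10 and 6.26 in lean and 8.43, 9.36, 10.1, 10.6 and 10.7 in obese pigs (limma adjusted p = 0.0514), again without overlap. The member beside LDOC1L was higher and that beside SESN3 lower in obese pigs. NPEPL1, an aminopeptidase-like gene, had means of 4.68 ± 0.184 and 6.66 ± 0.711 FPKM (SD, n = 5 each), with a limma adjusted p of 0.0827. The paper reports it as upregulated in obese pigs, both by its own RNAseq test and by quantitative PCR (RT-qPCR) in more pigs. For the zinc finger gene ZNF507 they were 4.61 ± 0.631 in lean and 3.10 ± 0.122 in obese pigs (limma adjusted p = 0.0827). ENSSSCG00000021829 had 1.45 ± 0.314 and 0.640 ± 0.187 (limma adjusted p = 0.0827). All of these missed the threshold. Separation of their groups follows from the choice by lowest p and says nothing about nearest genes in general.

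**Figure D5:**
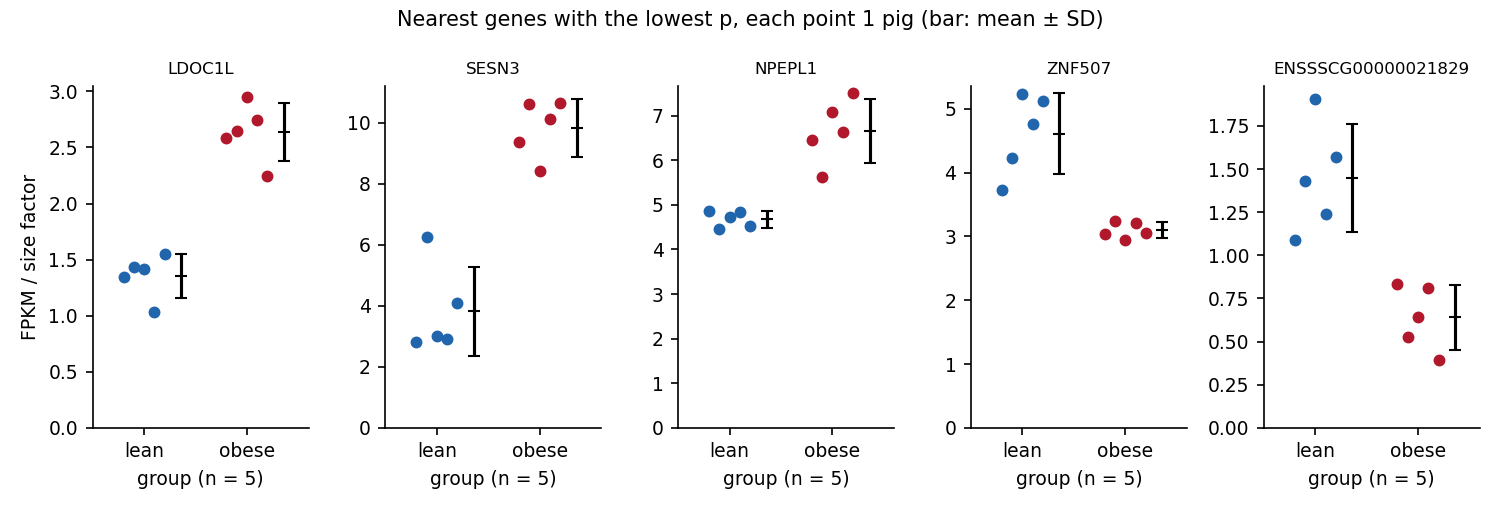
FPKM divided by the size factor in each of 5 lean and 5 obese pigs (points, with mean and SD) for the 5 nearest genes with the lowest unadjusted p. In each gene the groups do not overlap, as with 2.82 to 6.26 in lean and 8.43 to 10.7 in obese pigs for SESN3, and the limma adjusted p lies between 0.0514 and 0.0827.

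Single pigs and libraries moved this result over the threshold. With the libraries of pig-572 as separate samples 9 nearest genes passed, beside 163 of all genes (1.59%), and without pig-402 it was 7, beside 147 (1.44%). The second of these libraries is labelled pig-572 in its title but carries another number in its description, so that its origin is in doubt. Without pig-407 1 nearest gene passed, SESN3, and 2 of all genes. Without any other single pig none passed. The nearest genes with the most members had low FPKM values. EFNB2 had 0.169 ± 0.206 FPKM in lean and 0.169 ± 0.0919 in obese pigs (SD, n = 5 each), and CDK7 1.33 ± 0.188 and 1.53 ± 0.335 (limma adjusted p = 0.555). The others, ENSSSCG00000015634, the U6 copy and ENSSSCG00000025361, were listed at 0 in every pig. For the U6 copy a 0 does not show a lack of expression, since most copies of such small RNAs, which all cells use, were listed at 0. What the 0 of ENSSSCG00000015634 and ENSSSCG00000025361 stands for was not tested. Among genes whose nearest members were all higher in obese pigs, 8 of 33 tested (24.2%) had an unadjusted p under 0.05, all of them higher in obese pigs. Among those with lower members only, 48 of 278 did (17.3%), 27 lower and 21 higher. Of all 10246 genes tested with limma, 20.4% did, 968 lower and 1125 higher. Of the 944 tested genes with a region on their locus, 22.2% did, 48 lower and 162 higher.

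Developmental transcription factors, which often border large deserts, were the nearest gene of 86 members at 30 loci, and 77.9% of these members were lower in obese pigs. They made up 3.24% of the nearest genes and 1.09% of all genes with a locus. IRX4 had the most members, 10, of which 3 were lower, followed by KLF6 with 7, of which 5 were lower. The 4 members beside PRDM16 were all higher, as were the 3 beside FOXL1, whereas all 5 beside each of IRX3, TFAP2A and TSHZ3 were lower. Of the 30 genes, 9 passed the filter on low values, and 0 had an adjusted or an unadjusted p under 0.05 in limma, beside 0.00976% and 20.4% of all genes. KLF6, an early response factor, had 31.3 ± 10.15 FPKM in lean and 28.7 ± 14.7 in obese pigs (SD, n = 5 each), and NFIB, a factor of organ development, 19.9 ± 4.46 and 24.9 ± 8.12. FOXO1, the insulin-restrained forkhead factor of adipocytes and liver, had 9.38 ± 3.53 and 7.10 ± 2.87.

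Adhesion and guidance genes of neurons, many of which are very long and lie in sparse sequence, were nearest to 19 members at 17 loci, all 19 lower in obese pigs, where 85.9% of all members were. Of these genes 4 were tested, and none had a limma adjusted p under 0.05. CTNNA2, the neuronal alpha catenin, was the single gene with an unadjusted p under 0.05 (20.4% of all genes had one), with 0.605 ± 0.220 FPKM in lean and 1.31 ± 0.696 in obese pigs (limma adjusted p = 0.207). SEMA3C, a secreted semaphorin, was the most expressed with 23.8 ± 11.03 and 31.2 ± 8.43 (limma adjusted p = 0.439). Small RNA genes, such as copies of U6 and 5S ribosomal RNA, were nearest to 190 members at 96 loci, 90% of them lower in obese pigs, and made up 10.4% of the nearest genes and 8.77% of all genes. Copies that share such a name are different loci, and of the 6 tested, 0 passed the limma threshold and 1 had an unadjusted p under 0.05, where 20.4% of all genes did. None of the 183 olfactory receptor genes with a locus was nearest to a member.

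Transcripts of mature adipocytes were abundant in all pigs. Of 12 adipocyte markers, 6 had a locus under that name, and SCD had a failed estimate. The other 5 had a median of 166 FPKM, with GPD1, the glycerol phosphate dehydrogenase of triglyceride synthesis, highest at 331. Their summed FPKM ranged from 891 to 977 in lean and from 922 to 1071 in obese pigs. LEP, the adipocyte hormone leptin, had 28.8 ± 21.1 FPKM in lean and 118 ± 30.5 in obese pigs (SD, n = 5 each, limma adjusted p = 0.0827). The paper names LEP among the differentially expressed genes that its RT-qPCR bore out. Of the 8 macrophage and leukocyte markers found, 7 were under 1 FPKM, CD163 was listed at 0 and CD14 was highest at 1.87, with sums of 2.73 to 4.86 in lean and 2.72 to 5.13 in obese pigs. Endothelial markers summed to 1.47 to 12.5 and 3.49 to 9.54, led by PECAM1, and muscle markers to 0.444 to 0.744 and 0.284 to 1.04. Smooth muscle and pericyte markers, led by TAGLN, summed to 4.59 to 11.6 in lean and 8.18 to 12.8 in obese pigs. Fibroblast and preadipocyte markers summed to 226.8 to 664 in lean and 248 to 627 in obese pigs, led by COL3A1 at 394 and DCN at 50.4, whereas PDGFRA (0.731) and DPP4 (0.00953) were under 1 FPKM. Of the 14 markers that passed the filter on low values, 0 had a limma adjusted p under 0.05, and the others, all muscle markers among them, were not tested. The ranges of each list overlapped between the groups. The part of other cell types in the results on desert regions was not tested.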

How the data were processed

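The members, the lists and the rules below were chosen with earlier results of these data known. For mDNAcap, the authors mapped reads to Sscrofa10.2 and ran diffReps 1.55.4 with a G-test (window 1000, step 100, p cutoff 0.0001). The paper counts fewer regions than were deposited, those with an adjusted p under 0.05. The deposited signal of a group is its mean of normalized counts. For RRBS, the authors used Bismark 0.10, Bowtie2 2.1.0 and metilene, and the deposited fraction is the mean methylation of a group in a region, given here as percent, beside the deposited count of CpGs. For RNAseq, the authors used STAR 2.3.1 and estimated FPKM with Cufflinks 2.2.0, so library depth is not known from these values. Fold changes and p-values deposited by the authors, and their table of region clusters, were not used.

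Distances were computed to 25337 locus entries of 25285 gene identifiers. Of these, 1157 genes took their name from a reference list and 6334 had none. Capture values entered limma 3.58.1 (R 4.3.3, eBayes with trend, Benjamini-Hochberg) as log2 after adding 1. For expression, each library was first scaled to a common level through its median ratio to the others, then both libraries titled pig-572 were combined as their mean. Only genes with a deposited FPKM, before scaling, of 1 or more on average over the pigs entered the same fit, and 9 with a failed estimate were left out. Each RNAseq library had between 8950 and 10291 genes at a deposited FPKM of at least 1. Both fits were tested on simulated data. Correlations are given without p.

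Regions named were the 3 lowest and 3 highest ratios, the 3 farthest, the 3 longest, those nearest each limit and those on RRBS regions, with the 3 fullest gaps. Genes named were their neighbours, the 5 with the most members and the 5 with the lowest p. Other genes of the lists and marker genes are examples chosen after their values were seen. Python 3.11.15, numpy 2.4.6, pandas 2.3.3, scipy 1.17.1 and matplotlib 3.10.9 were used.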

Additional observations from a re-analysis of the deposited data

Results flagged for a closer look

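Among 58 groups of 5 pigs, 7 had a value apart from the other 4 by Dixon's criterion, the gap to the nearest value over the whole range, at a level where chance marks about 1 in 20 groups. Obese pig-433 stood apart in PFKP (3.86 FPKM, the others 0.475 to 0.848), in KIAA0513 (3.61, the others 2.1 to 2.49) and in NFIB (39.3, the others 19.7 to 22.9). PFKP, a phosphofructokinase named after its values were seen, was nearest to 10 members, of which 4 were lower in obese pigs. Lean pig-407 stood apart in EFNB2 (0.523, the others 0.00131 to 0.137). IRX4 was detected in single pigs, at 0.172 FPKM in lean pig-577 and 0.0755 in obese pig-524, and was listed at 0 in the others, where any detected value is marked. The summed muscle markers were lowest in lean pig-402 (0.444, the others 0.672 to 0.744).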

How the results depend on the processing

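No paired analysis was possible because lean and obese pigs are different animals and the numbers of samples pair none of them. A minimum distance of 100000 bases left 1117 desert regions. Without the limit on the mean the lower share was 83.2%. Among members changed at least 1.5-fold it was 94.5%, and its difference to locus regions 12.8 points (24.3 with all). The other settings, each run and each library left out included, kept the share between 84.5% and 86.9%, which the choice of the regions by this contrast largely fixes. Members past the limma threshold numbered 1729 as deposited, 496 scaled by the median of ratios, 597 scaled by the bin mean, and 1708 to 1731 with a library left out. Nearest genes past the threshold were 9 with the libraries of pig-572 apart, and 0 to 7 with a pig left out. With values in at least 3 pigs there were 361 desert RRBS regions and 9 overlapping members, beyond 100000 bases 50 RRBS regions, and within 1000 bases 6 overlapping members. The lean correlation was 0.469 without the 2 farthest libraries and 0.745 within hiseq2b (rho 0.314, from 0.718). The single runs, the run as a term and the ratio of desert to locus sums were chosen after seeing the data. Wider or narrower limits change counts by construction, and the cause of the other changes was not tested.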
